A study of Mus musculus with 8 samples.

Results

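The liver transcriptome of mice given SLIT2 together with acetaminophen (APAP) was compared with that of mice given SLIT2 alone. The comparison asks what the toxic dose did where SLIT2 was already present. Both groups came from WT mice and were taken from their treatment labels, 2 libraries a side, so 4 of the 8 liver libraries of the series enter. SLIT2 mice received 2 µg of SLIT2 each by the intraperitoneal route for 3 days, and SLIT2+APAP mice received the same plus 400 mg/kg APAP, with livers collected 24 h later. The other 4 libraries, also WT, are 2 controls given PBS and 2 from mice given PBS with the same dose of APAP, and they serve as reference levels and in the estimate of spread. All 4 groups therefore share genotype and tissue, and the SLIT2 group differs from the SLIT2+APAP group in the APAP dose alone, as far as the labels say. Nothing in the labels ties the 2 libraries of each group to different animals. The p-values therefore reflect only how far these samples vary, and that variation may be technical.

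SLIT2 is a secreted protein that binds ROBO receptors and is best known for guiding axons, vessels and migrating leukocytes. APAP is cleared in hepatocytes mostly by glucuronidation and sulfation. At high dose the cytochrome P450 enzymes of the hepatocytes around the central vein, Cyp2e1 among them, turn part of it into a reactive quinone imine that consumes glutathione, binds mitochondrial proteins and activates the kinase JNK, after which the pericentral hepatocytes die and the rest of the lobule mounts an acute phase and repair response.

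The 4 libraries differed in composition before any gene was compared. The 13 mitochondrially encoded genes took 60.25% and 69.01% of all counts in the SLIT2 libraries and 25.09% and 30.27% in the SLIT2+APAP libraries. The groups did not overlap, and the difference, SLIT2+APAP minus SLIT2, was -36.95 percentage points (exact permutation p = 0.33, two-sided, which is the smallest value that 2 against 2 allows). Control and APAP libraries held 13.42% to 17.26%. Total counts ran from 60.82 to 83.69 M (1 M is 1000000 counts) in the 4 libraries compared, which left 25.15 and 18.85 M counts in nuclear-encoded genes for SLIT2 and 55.23 and 58.36 M for SLIT2+APAP, beside 72.72 to 85.83 M in control and APAP. Noncoding genes took 1.236% and 1.724% of the nuclear-encoded counts in SLIT2 and 0.345% and 0.422% in SLIT2+APAP, and pseudogenes 1.414% and 1.612% against 0.683% and 0.795%. On the first principal component of log2 CPM (counts per 1000000 counts, on TMM-scaled library sizes), which held 62.3% of the variance, the SLIT2 libraries lay at 159.4 and 175.7, the SLIT2+APAP libraries at -15.3 and 5.3, and the other 4 between -92 and -71.8. Hepatocyte markers were present in all 8 libraries, but Alb, the albumin gene, made up 1.24% to 2.38% of nuclear-encoded counts in SLIT2 against 3.17% to 8% elsewhere. Whether these shifts come from the treatments or from the handling of the samples cannot be told apart with these 2 SLIT2 libraries. In bulk tissue, fewer cells of a type and less RNA per cell also cannot be told apart.

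**Figure D1:**
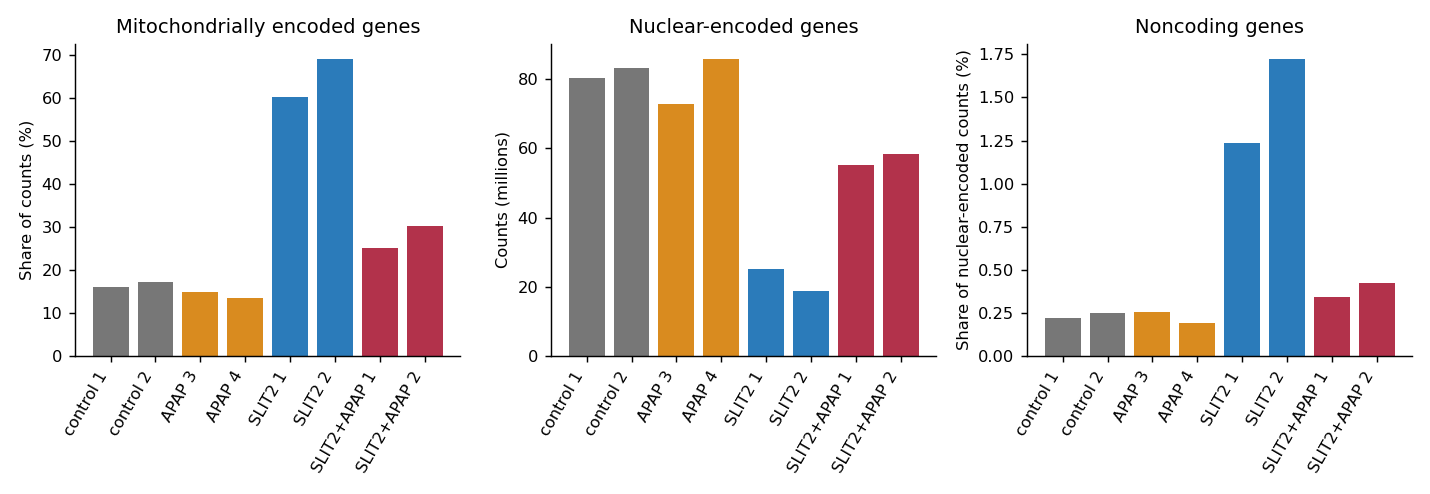
Share of counts from the 13 mitochondrially encoded genes (%), counts in nuclear-encoded genes (M) and share of nuclear-encoded counts from noncoding genes (%), 1 bar per library and no error bars. The SLIT2 libraries stand at 60.25% and 69.01% mitochondrially encoded and the SLIT2+APAP libraries at 25.09% and 30.27%, with every control and APAP library at 17.26% or below.

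Of 16876 genes tested with edgeR's quasi-likelihood model, 6851 (40.6%) were called between SLIT2+APAP and SLIT2 at a Benjamini-Hochberg adjusted p under 0.05. Higher with APAP were 3478 genes (20.6% of those tested) and lower were 3373 (20%), and 8455 genes had an unadjusted p under 0.05. Among the calls, 2850 rises and 3012 falls were at least 2-fold, and 265 rises and 651 falls at least 8-fold. The 2 libraries of each side did not overlap for 6643 genes in the higher direction (39.4%) and 6581 in the lower direction (39%). The median log2 fold change over all genes was -0.02. With scaling by the totals of nuclear-encoded genes and no TMM step, the median became -0.86 and 15.8% of the calls were higher, against 50.8% with TMM, so every change given here is relative to the bulk of genes. The 2 APAP libraries enter the estimate of spread. They differed by a median absolute log2 of 0.601, against 0.215 to 0.36 in the other groups. Without both APAP libraries 9362 genes were called. The number of calls also moved with single libraries. It was 2798 without SLIT2+APAP 1, 3808 without SLIT2+APAP 2 and 4339 without SLIT2 2, and 9660 without APAP 3. For reference, the comparison of SLIT2 with control, which uses the same SLIT2 libraries, called 9266 genes (54.9%), and that of SLIT2+APAP with control, which uses the same SLIT2+APAP libraries, called 365 (2.16%).

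**Figure D2:**
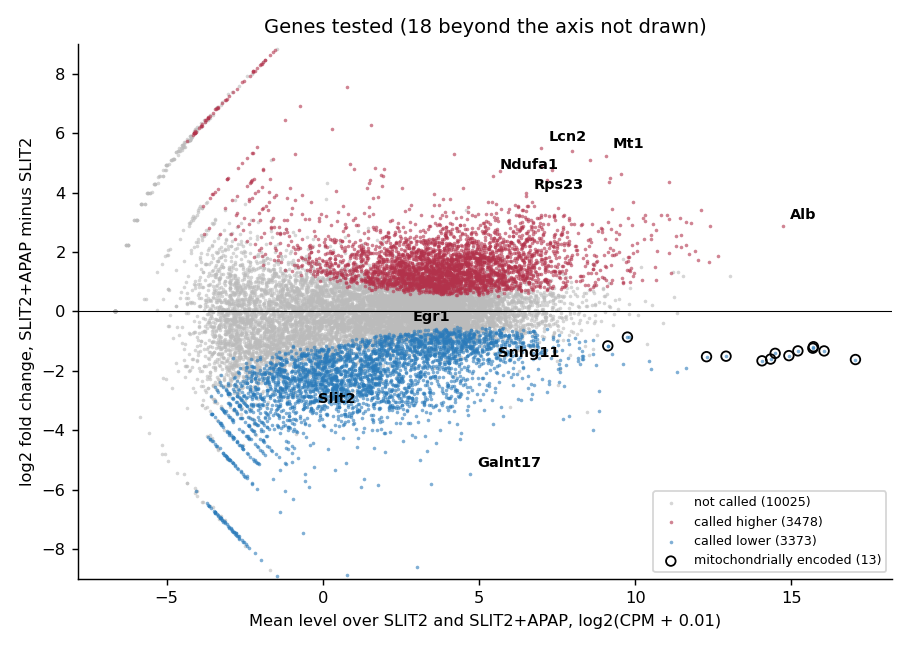
Log2 fold change of SLIT2+APAP over SLIT2 against the mean level over both groups, log2(CPM + 0.01), 1 point per gene tested, with called genes coloured and the 13 mitochondrially encoded genes circled. Calls number 3478 above and 3373 below the line, and the circled genes lie together at high level and below 0.

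The direction of change followed the level of the gene. Among the 3373 genes with the highest level in control (at least 25.46 CPM), 55.5% were called higher and 5.1% lower, with a median log2 fold change of 0.97. Among the 3373 with the lowest level (at most 0.2807 CPM) 2.08% were called higher and 39.7% lower, with a median of -1.57. Transcript length showed a shallower trend of the same kind. Genes whose longest transcript was 63 to 1685 bases were 31.6% higher and 18.2% lower, and those of at least 5012 bases 10.7% higher and 24.8% lower. GC content separated the genes little, with 23.4% higher among transcripts of at most 43.68% GC and 17.5% among those of at least 55.18%. Protein-coding genes were called higher in 22.5% and lower in 17.3% of cases, noncoding genes in 4.37% and 41.4%, and pseudogenes in 7.69% and 39.1%. Between SLIT2 and control the same level classes ran the other way, with a median of 2.22 at the lowest level and -1.27 at the highest, whereas between APAP and control the medians stayed between -0.09 and 0.33. The comparison of SLIT2 with control holds the same SLIT2 libraries with the opposite sign, and its control side orders the classes. A mirrored trend is therefore in part built in and is not a separate observation. A further fit, chosen after seeing the data, removed each library's trend with the mean level of a gene. By its construction it takes out any difference that runs along with level. It called 5770 genes, 45.1% of them higher. Beside most groups the count under this level correction is given.

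**Figure D3:**
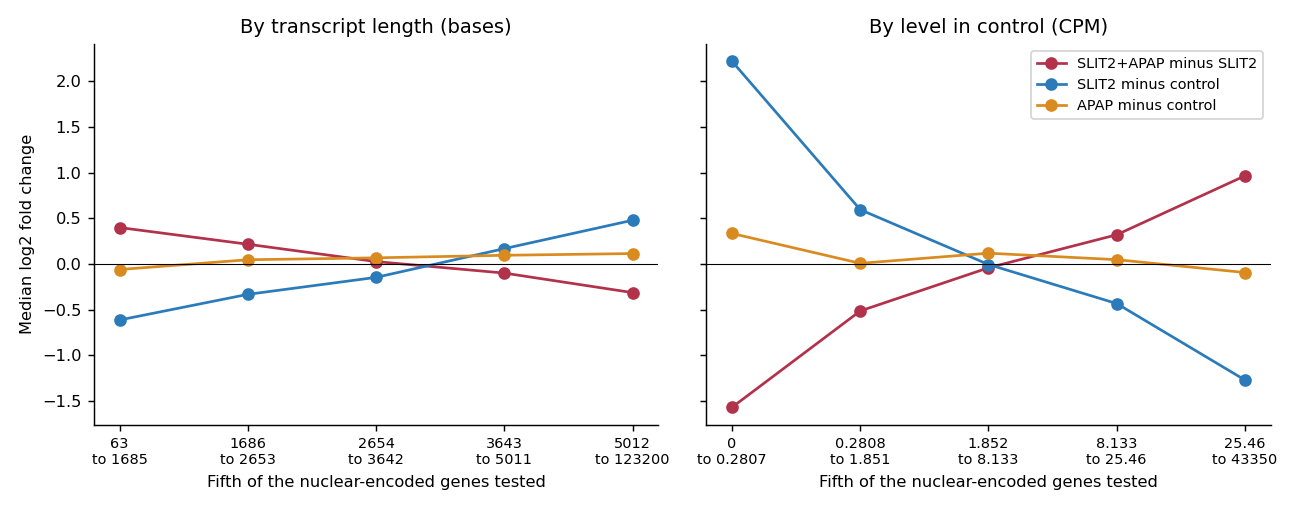
Median log2 fold change in 5 classes of equal size of the genes tested, ordered by transcript length in bases (left) and by level in control in CPM (right), for 3 comparisons. For SLIT2+APAP minus SLIT2 the median rises from -1.57 to 0.97 with level and falls from 0.40 to -0.31 with length. SLIT2 minus control, which holds the same SLIT2 libraries with the opposite sign, runs the opposite way, and APAP minus control stays near 0.

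The genes of the respiratory chain moved in opposite directions according to the genome that encodes them. All 13 mitochondrially encoded genes were lower in SLIT2+APAP, with log2 fold changes of -0.87 to -1.66 and a median of -1.41. For each the 2 groups did not overlap. Of all genes, 20% were called lower and 39% did not overlap in the lower direction. mt-Co1, the catalytic subunit of cytochrome c oxidase (ENSMUSG00000064351, mitochondrial genome, GRCm38 positions 5328 to 6872), stood at 162600 and 247100 CPM in the SLIT2 libraries and at 62220 and 71010 CPM in the SLIT2+APAP libraries (log2 fold change -1.62 ± 0.39 SE, edgeR adjusted p = 0.01344). Control and APAP libraries held 39140 to 53240 CPM. mt-Nd3, a complex I subunit with the largest fall of the 13, went from 24330 and 27570 CPM to 7375 and 8999 CPM (-1.66 ± 0.32, edgeR adjusted p = 0.004967). These calls were among the least stable to single libraries, with 0 of 13 past the threshold without SLIT2+APAP 1 and 2 without SLIT2+APAP 2. Between 7 and 10 passed without either control, SLIT2 2 or either APAP library, and 5 with the 4 compared libraries alone. Under the level correction all 13 were called lower.

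Of 30 nuclear genes for subunits of the respiratory chain and ATP synthase, 29 were higher and 0 lower, with a median log2 fold change of 2.13 (log2 range 0.27 to 4.56), where 20.6% of all genes were higher and the median was -0.02. Ndufa1, an accessory subunit of complex I (ENSMUSG00000016427, chromosome X, 37187588 to 37191163), was at 4.35 and 2.68 CPM in SLIT2 and at 91.7 and 74.9 CPM in SLIT2+APAP (4.56 ± 0.31, edgeR adjusted p = 0.0005886). Its levels in control were 119.8 and 111 CPM, so the SLIT2 libraries were the low ones. Sdhc, a membrane anchor of succinate dehydrogenase, went from 13.8 and 11.2 CPM to 83 and 72.8 CPM (2.63 ± 0.22, edgeR adjusted p = 0.0005886), and Ndufb3, another complex I subunit, from 6.3 and 5.87 CPM to 38.6 and 32.8 CPM. The one member that did not pass was Ndufs1. The summed level of the list was 1231.242 and 883.877 CPM in SLIT2, 4459.146 and 3987.478 CPM in SLIT2+APAP and 5884.727 to 7520.76 CPM in the other libraries. Against control, 8 members were lower in SLIT2+APAP, where 1.45% of all genes were lower. The count of rises stayed between 24 and 29 with any 1 library left out and was 20 under the level correction.

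Genes of protein synthesis and breakdown showed the same order of libraries. Of 30 cytosolic ribosomal protein genes, 28 were higher and 0 lower, beside 20.6% and 20% over all genes, with a median of 2.26. Rps23, a protein of the small subunit (ENSMUSG00000049517, chromosome 13, 90922958 to 90924950), was at 11.5 CPM in both SLIT2 libraries and at 173.7 and 166.9 CPM in SLIT2+APAP (3.89 ± 0.22, edgeR adjusted p = 0.0005886). Rps20, also of the small subunit, went from 32.7 and 34 CPM to 321.1 and 290.9 CPM (3.20 ± 0.23), close to the 271 and 308.2 CPM of control. Ribosomal protein genes have many processed pseudogenes, and how the counting split such reads is not known here. Of 20 proteasome genes 15 were higher and 0 lower, with a median of 1.37. Psmb7, a catalytic subunit, went from 11.4 and 6.32 CPM to 88.8 and 70.9 CPM (3.17 ± 0.31, edgeR adjusted p = 0.0006245), and Psmb1 from 22.5 and 19.1 CPM to 112.8 and 98.7 CPM. Nedd8, a ubiquitin-like modifier, went from 4.11 and 3.78 CPM to 37.7 and 31.4 CPM (3.13 ± 0.21). The level correction gave 18 ribosomal genes higher and 0 lower, and 8 proteasome genes higher and 4 lower. Totals of nuclear-encoded genes without TMM gave 23 and 1, and 8 and 3. Leaving out 1 library gave 27 to 29 ribosomal and 12 to 15 proteasome genes.

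Acute phase genes, which encode the plasma proteins the liver makes in inflammation under interleukin 6 and related signals, were higher with APAP in 21 of 23 cases and lower in 0, with a median log2 fold change of 2.73. Socs3 and Cebpd did not pass. The shares over all genes were 20.6% higher and 20% lower. The promoters of 5 of the acute phase genes are shown because the members moved together. They are the 250 bases before the start of each gene, from RefSeq on GRCm38.p6, 5′ to 3′ on the strand of the gene. Capitals mark every match to TTCNNNGAA, the letters of a STAT site, or TTGCNNAA, those of a C/EBP site, searched on both strands, with no overlap between matches of the 2 motifs. The genes were picked for holding a match, with their values known. The windows are chr3:83049864-83050113 (minus strand) for Fgb, chr14:30886226-30886475 (plus) for Itih4, chr7:30944030-30944279 (minus) for Hamp, chr5:7960222-7960471 (plus) for Steap4 and chr2:32387740-32387989 (minus) for Lcn2, where the RefSeq start lies inside the longer gene span of GENCODE.
Fgb: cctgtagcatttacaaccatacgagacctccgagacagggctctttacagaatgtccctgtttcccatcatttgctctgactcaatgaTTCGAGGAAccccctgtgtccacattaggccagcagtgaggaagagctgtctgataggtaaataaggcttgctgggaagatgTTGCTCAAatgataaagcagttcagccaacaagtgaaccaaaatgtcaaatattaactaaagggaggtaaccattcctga
Itih4: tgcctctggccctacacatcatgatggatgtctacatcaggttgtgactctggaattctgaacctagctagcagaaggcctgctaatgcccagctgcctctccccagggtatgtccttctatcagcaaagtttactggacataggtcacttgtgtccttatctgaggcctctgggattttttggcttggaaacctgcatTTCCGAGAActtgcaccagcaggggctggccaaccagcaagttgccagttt
Hamp: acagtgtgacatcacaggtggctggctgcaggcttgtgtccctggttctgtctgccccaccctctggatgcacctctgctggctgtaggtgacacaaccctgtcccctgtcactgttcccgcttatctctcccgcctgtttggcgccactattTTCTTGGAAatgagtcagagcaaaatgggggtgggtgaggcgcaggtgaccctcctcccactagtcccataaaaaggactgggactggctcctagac
Steap4: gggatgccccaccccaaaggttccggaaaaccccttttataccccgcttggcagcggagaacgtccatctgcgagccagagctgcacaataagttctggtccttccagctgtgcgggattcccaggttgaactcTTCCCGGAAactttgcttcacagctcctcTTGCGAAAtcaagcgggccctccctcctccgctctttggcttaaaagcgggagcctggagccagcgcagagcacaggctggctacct
Lcn2: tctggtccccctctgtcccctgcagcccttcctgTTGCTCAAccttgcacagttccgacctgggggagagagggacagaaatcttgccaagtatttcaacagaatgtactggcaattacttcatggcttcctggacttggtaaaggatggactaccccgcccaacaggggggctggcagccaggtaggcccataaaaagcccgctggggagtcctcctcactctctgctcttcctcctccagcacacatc

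TTCNNNGAA began 162 bases before the start in Fgb, 51 in Itih4, 97 in Hamp and 116 in Steap4. TTGCNNAA began 80 bases before the start in Fgb, 87 in Steap4 and 216 in Lcn2. TTCNNNGAA occurred in 7.02% of all 32851 windows of the same length, in 5.615% of those of genes called higher, 5.545% of genes called lower and 6.484% of genes not called. TTGCNNAA occurred in 9.564% of all windows and in 9.051%, 8.527% and 7.704% of those 3 classes. Among 12148 tested genes with a window (72%), then, neither motif was more frequent by over 2 percentage points among the genes that rose. A match is a string of letters and does not show that a factor bound there.

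Among the acute phase genes whose windows are printed, Fgb, the fibrinogen beta chain, was at 460.6 and 396.6 CPM in SLIT2 and 3445 and 2228 CPM in SLIT2+APAP (2.73 ± 0.36, edgeR adjusted p = 0.001306). Itih4, an inter-alpha-trypsin inhibitor heavy chain, went from 339.9 and 217.7 CPM to 2733 and 1830 CPM (3.03 ± 0.35, edgeR adjusted p = 0.0008762). Hamp, which encodes the iron hormone hepcidin, went from 258.6 and 243.7 CPM to 2845 and 1564 CPM (3.13 ± 0.58, edgeR adjusted p = 0.004418). In all 3 the lower SLIT2+APAP library was more than 4 times the higher SLIT2 library. Steap4, a metalloreductase, went from 4.62 and 1.47 CPM to 24 and 22.9 CPM (2.94 ± 0.46). Lcn2, the siderophore-binding lipocalin of acute inflammation (ENSMUSG00000026822, chromosome 2, 32384633 to 32388252), had the second largest rise of the genes named by size, from 9.02 and 2.01 CPM to 346.9 and 151.8 CPM (5.49 ± 0.87, edgeR adjusted p = 0.00242).

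Lcn2 also exceeded its control level of 14.5 and 27.5 CPM in both SLIT2+APAP libraries, unlike Fgb, which stood at 4200 and 3370 CPM in control. The serum amyloid genes Saa1 and Saa2 did as well. Saa1 stood at 91.4 and 15.1 CPM in SLIT2, 1689 and 501.4 CPM in SLIT2+APAP and 123.7 and 165.3 CPM in control (4.36 ± 0.92, edgeR adjusted p = 0.007834), and the near-identical Saa2 was at 1828 and 423.9 CPM in SLIT2+APAP, so the split of reads between them is uncertain. Orm2, an orosomucoid, was at 21.6 and 1.61 CPM in SLIT2 and 460.5 and 167.8 CPM in SLIT2+APAP, with 11.4 CPM in both controls. Apcs, serum amyloid P, went from 13.4 and 3.01 CPM to 298.8 and 192.5 CPM (4.90 ± 0.89, edgeR adjusted p = 0.004247). SLIT2 1 was the higher SLIT2 library and SLIT2+APAP 1 the higher SLIT2+APAP library for each of these. Tested against control, 0 of the 23 members passed in SLIT2+APAP, with a median of 0.42. Few genes of any kind passed that test, 0.717% higher and 1.45% lower. The calls numbered 13 without SLIT2+APAP 1, which lost Saa2 (edgeR adjusted p = 0.06981) and Orm2 (0.05659) among others, at least 17 with any other library left out, and 13 under the level correction, which lost Fgb (0.162) and Hamp (0.09356).

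Other secreted hepatocyte proteins rose with them, and are set against 20.6% higher and 20% lower over all genes. Of 25 plasma protein and apolipoprotein genes, 24 were higher and 0 lower, with a median of 2.08, and the sum of the list was 27489.824 and 15585.26 CPM in SLIT2 against 132137.708 and 118731.428 CPM in SLIT2+APAP. Alb was at 8811 and 4216 CPM in SLIT2 and 47000 and 47750 CPM in SLIT2+APAP (2.86 ± 0.49, edgeR adjusted p = 0.003153), with 30270 and 48450 CPM in control. Apoh, beta-2-glycoprotein I, went from 108.6 and 95.1 CPM to 1296 and 921.8 CPM (3.44 ± 0.29), and F2, prothrombin, from 67.4 and 53.6 CPM to 546.4 and 386.2 CPM (2.95 ± 0.29). Plg, plasminogen, went from 427.4 and 344.6 CPM to 2301 and 1905 CPM (2.45 ± 0.28), around the 2244 and 2263 CPM of control. Outside the list, Apoa4, an apolipoprotein of lipid transport and among the 8 largest rises, had 30.9 and 11.9 CPM in SLIT2, 764.9 and 689.3 CPM in SLIT2+APAP and 290.7 and 377.3 CPM in control, so it also exceeded control (5.08 ± 0.67, edgeR adjusted p = 0.001303). Mbl2, a mannose-binding lectin of the complement system, went from 22.8 and 20.9 CPM to 195.4 and 169.2 CPM (3.06 ± 0.22). The number of list members higher was 20 to 24 with 1 library left out, and 8 under the level correction, which ended the calls of Alb (edgeR adjusted p = 0.4329) and Plg (0.08074).

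**Figure D4:**
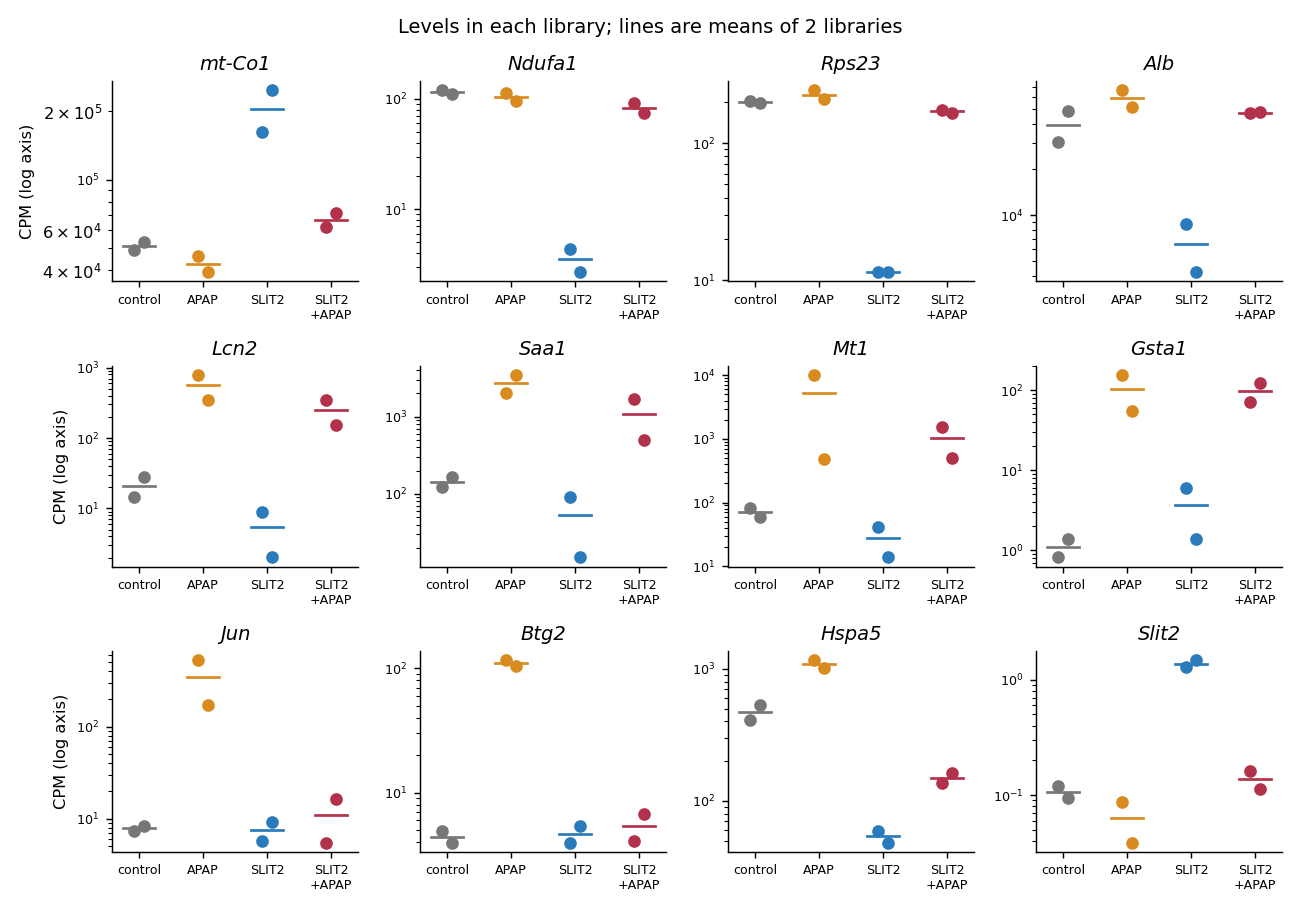
Level in CPM on log axes of 12 genes in each library, points for libraries and lines for the means of 2. Ndufa1, Rps23 and Alb are low in the SLIT2 libraries alone, Jun and Btg2 are high in the APAP libraries alone, and Lcn2, Saa1, Mt1 and Gsta1 are high in both groups given APAP.

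Metallothioneins, which bind zinc and copper, had large and uneven rises. Mt1 was at 40.8 and 13.7 CPM in SLIT2 and 1560 and 508.6 CPM in SLIT2+APAP (5.24 ± 1.35, edgeR adjusted p = 0.01674), and Mt2 at 17.7 and 5.7 CPM against 736.1 and 250 CPM (5.39 ± 1.37, edgeR adjusted p = 0.01625). In control Mt1 stood at 83.1 and 59.7 CPM and in APAP at 9991 and 487.8 CPM. Both calls ended without SLIT2 1 (edgeR adjusted p = 0.06172 for Mt1 and 0.06081 for Mt2), without SLIT2 2 (0.113 and 0.1112) and without SLIT2+APAP 1 (0.07913 and 0.07513). Beside 20.6% and 20% over all genes, 9 of 15 metallothionein and iron genes were higher and 0 lower, with a median of 1.30. They included Fth1, the ferritin heavy chain, which went from 264.3 and 186.8 CPM to 1768 and 1589 CPM (2.90 ± 0.32, edgeR adjusted p = 0.0007834). The count was 5 without SLIT2 2 or SLIT2+APAP 1, 6 without SLIT2 1 or SLIT2+APAP 2, and 4 under the level correction.

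Of 26 genes of glutathione handling and the NRF2 response to electrophiles, 17 were higher and 0 lower. The median was 1.37, and of all genes 20.6% were higher and 20% lower. Gsta1, an alpha class glutathione transferase, was at 6 and 1.38 CPM in SLIT2 and 72.7 and 123.3 CPM in SLIT2+APAP (4.72 ± 0.80, edgeR adjusted p = 0.003112), far above the 0.81 and 1.38 CPM of control. Reads of Gsta1 are hard to separate from those of its close relatives. The mu class gene Gstm2 went from 2.34 and 2.21 CPM to 40.3 and 22.8 CPM (3.79 ± 0.52) and Gstm1 from 229.3 and 138.6 CPM to 1239 and 1081 CPM (2.66 ± 0.37, edgeR adjusted p = 0.001557). Nqo1, a quinone reductase that is a standard NRF2 target, went from 0.96 and 1.32 CPM to 7.4 and 7.24 CPM (2.69 ± 0.36), beside 4.15 and 6.33 CPM in control. Mgst1, a microsomal transferase, went from 560.7 and 277.2 CPM to 2849 and 2169 CPM. Gclc and Hmox1, further classic NRF2 targets, were not among the 17. The count was 11 without SLIT2 2 and 12 without either SLIT2+APAP library, 7 with 3 lower for totals of nuclear-encoded genes alone, and 9 with 2 lower under the level correction, which ended the call of Mgst1 (edgeR adjusted p = 0.05199).

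Drug-metabolising P450 genes, which include the enzymes that activate APAP, were higher in 12 of 17 cases and lower in 0, with a median of 1.63. Cyp2e1, the main activating enzyme, was at 487.1 and 302.6 CPM in SLIT2 and 1991 and 1093 CPM in SLIT2+APAP (1.97 ± 0.38, edgeR adjusted p = 0.005302), below the 2862 and 3002 CPM of control. Cyp2c50 went from 107 and 57.8 CPM to 330.4 and 255.8 CPM (1.83 ± 0.33), and Cyp3a13 from 66.3 and 41.1 CPM to 171.2 and 149.1 CPM (1.57 ± 0.29). Cyp2a4, among the largest rises, stood at 1.08 and 0.71 CPM in SLIT2 and at 9.1 and 62.1 CPM in SLIT2+APAP (5.31 ± 1.12, edgeR adjusted p = 0.007693), and its reads are hard to tell from those of Cyp2a5. Its call ended without SLIT2 1 (edgeR adjusted p = 0.05337) or SLIT2 2 (0.07175). Of 15 genes of glucuronidation and sulfation, the main safe routes of APAP clearance, 6 were higher and 0 lower. Over all genes these shares were 20.6% and 20%. Ugp2, which makes the UDP-glucose that precedes the glucuronide donor, went from 72.7 and 39.2 CPM to 257.3 and 235.3 CPM (2.14 ± 0.31, edgeR adjusted p = 0.001775). The P450 count was 6 without SLIT2 2 or SLIT2+APAP 1. The level correction turned the balance, with 2 higher and 4 lower, and ended the calls of Cyp2e1 (edgeR adjusted p = 0.8874), Cyp2c50 (0.09609), Cyp3a13 (0.1204) and Cyp2d26 (0.9541). The glucuronidation count was 1 without SLIT2+APAP 1, 2 without SLIT2 2 or SLIT2+APAP 2, and under the level correction 1 member was higher and 5 lower.

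Hepatocytes divide metabolic work between the pericentral and periportal ends of the lobule. Of 12 pericentral Wnt targets, Oat alone passed, higher at 299 and 152.7 CPM against 76 and 35 CPM (2.02 ± 0.55, edgeR adjusted p = 0.02116), with a median of -0.18 for the list. Oat is an ornithine aminotransferase, stood at 910.1 and 823.2 CPM in control, and lost its call without SLIT2 2 (edgeR adjusted p = 0.1159), without SLIT2+APAP 1 (0.135) and under the level correction (0.2692). Of 17 urea cycle and amino acid enzymes, which mark the periportal side, 5 were higher and 0 lower, with a median of 0.75. Over all genes the shares were 20.6% and 20%. Arg1, arginase, went from 277.5 and 262.2 CPM to 1253 and 741.3 CPM (1.89 ± 0.34, edgeR adjusted p = 0.004126), and Nags, which makes the activator of the urea cycle, from 11.2 and 11.4 CPM to 40.7 and 31.6 CPM. Under the level correction the balance turned, with 1 member called higher and 7 lower, and the call of Arg1 ended (edgeR adjusted p = 0.7915). The count of rises was 3 without SLIT2+APAP 1 and 8 without either APAP library. Hepatocyte transcription factors gave 3 rises (Cebpa, Rxra and Thrb) and 2 falls (Nr1i2 and Prox1) among 18, which is below the share over all genes, and 0 rises without SLIT2 2 or SLIT2+APAP 2 and under the level correction, where 5 were lower.

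Fatty acid oxidation and ketogenesis genes were higher in 16 of 22 cases, with a median of 1.55, and 1 was lower, Ppara, the nuclear receptor that drives the pathway. Acadl, a long-chain acyl-CoA dehydrogenase, went from 36.5 and 21.3 CPM to 163.9 and 144.9 CPM (2.42 ± 0.31, edgeR adjusted p = 0.001125), and Hadh from 58.7 and 27.1 CPM to 215 and 206.9 CPM (2.30 ± 0.39). The count was 7 without SLIT2 2 or SLIT2+APAP 1, 8 without SLIT2+APAP 2, and 3 with 4 lower under the level correction. Cholesterol and fatty acid synthesis did not share this direction. Of 23 genes only Cyp51, a demethylase of cholesterol synthesis, was higher (16.8 and 18.9 CPM to 109.8 and 68.5 CPM), and Elovl6, a fatty acid elongase, and Mlxipl, the carbohydrate-responsive factor ChREBP, were lower, with a median of -0.37 and 6 lower under the level correction. Mlxipl went from 384 and 560.6 CPM to 144.3 and 187 CPM (-1.51 ± 0.29, edgeR adjusted p = 0.005468), and lost its call without SLIT2+APAP 1 (0.06865). Gckr, the glucokinase regulator, fell from 264.1 and 418 CPM to 126.8 and 104 CPM (-1.56 ± 0.34), a call that ended without SLIT2+APAP 1 (0.05524) or SLIT2+APAP 2 (0.0749). In bile acid synthesis and transport 4 of 18 were higher, close to the 20.6% over all genes, and 1 lower. The rises were 0 without SLIT2+APAP 1, 1 without SLIT2 2 and 2 without SLIT2 1. The level correction gave 0 higher and 8 lower, totals of nuclear-encoded genes 0 and 7, and a minimum of 10 CPM in 2 libraries 0 and 5. The 1 lower was Cyp27a1, of the alternative synthesis route, at 241.7 and 337.2 CPM in SLIT2 and 112.3 and 73.7 CPM in SLIT2+APAP (-1.64 ± 0.34, edgeR adjusted p = 0.007507, and 0.07077 without SLIT2+APAP 2).

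Immediate early genes, which are switched on within minutes of stress or mitogen signals, did not pass in either direction in the main fit. Of all genes, 20.6% were called higher and 20% lower. Of 15 members 0 were called, with a median log2 fold change of 0.51, and at an unadjusted p under 0.05 the same model passed 1 of them. DESeq2 called 1. Egr1 was at 7.7 and 7.24 CPM in SLIT2 and 2.39 and 7.57 CPM in SLIT2+APAP (-0.58 ± 0.65, edgeR adjusted p = 0.5092). Jun, a partner in the AP-1 factor and a JNK substrate, was at 5.8 and 9.32 CPM and 5.51 and 16.3 CPM, and the groups overlapped for both. Fos, its usual partner, was at 0.59 and 0.58 CPM in SLIT2 and 0.73 and 2.73 CPM in SLIT2+APAP (1.57 ± 0.57, edgeR adjusted p = 0.05817). It passed under DESeq2 (adjusted p = 0.01839), with library totals only (edgeR, 0.04621), with nuclear-encoded counts thinned to the smallest library (0.02993) and without SLIT2+APAP 1 (0.01452). In the other direction, 3 members were lower with totals of nuclear-encoded genes, Egr2 among them (-1.82, edgeR adjusted p = 0.04424), and 2 under the level correction. The sums over the list were 162.754 and 219.457 CPM in SLIT2, 168.482 and 205.395 CPM in SLIT2+APAP, 138.321 and 188.152 CPM in control and 2737.183 and 1037.702 CPM in APAP.

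The effect of APAP with SLIT2 was set against the effect of APAP without it by the contrast of the 2 differences, which share no library. This contrast called 4867 genes (28.8%), 2615 with a higher effect in the presence of SLIT2 (15.5%) and 2252 with a lower one (13.3%). It called 8303 genes without APAP 4 and 1002 without SLIT2+APAP 1, 1456 and 1739 without control 1 and 2, and 2050 and 2081 without SLIT2 2 and SLIT2+APAP 2. Of the 15 immediate early genes, 8 had a lower effect (Fos, Jun, Junb, Jund, Egr1, Egr2, Ier2 and Zfp36) and 0 a higher one. Egr1 reached 634.7 and 170.1 CPM in APAP from 3.79 and 2.81 CPM in control, and its 2 effects differed by a log2 of -7.51 (edgeR adjusted p = 0.004255). Jun, at 523.6 and 171.8 CPM in APAP, differed by -4.93 (edgeR adjusted p = 0.008943). Btg2, an antiproliferative p53 target, was at 116.1 and 105.4 CPM in APAP, 3.95 and 5.36 CPM in SLIT2 and 4.07 and 6.66 CPM in SLIT2+APAP, a difference of -4.44 (edgeR adjusted p = 0.003125). Gdf15, a stress cytokine, had 240.6 and 64.8 CPM in APAP but 2.89 and 5.71 CPM in SLIT2+APAP (-5.24, edgeR adjusted p = 0.006535). The count of 8 was 4 without control 1, SLIT2 2 or SLIT2+APAP 1, 6 without control 2, 7 without SLIT2+APAP 2 and 13 without APAP 4, and 12 under DESeq2.

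Other groups differed in the opposite sense. The contrast was higher for 29 of 30 nuclear respiratory chain genes, 23 of 30 ribosomal protein genes, 20 of 25 secreted hepatocyte proteins and 13 of 20 proteasome genes, and lower for 0 of these. The secreted count was 6 without SLIT2+APAP 1, 10 and 11 without control 1 and 2, 13 without SLIT2+APAP 2, and 2 higher with 1 lower under the level correction. The proteasome count was 7 without SLIT2+APAP 1 or control 2 and 8 without control 1, with 7 higher and 4 lower under the level correction and 8 and 4 with totals of nuclear-encoded genes. The ribosomal count was 15 without SLIT2+APAP 1 and 9 under the level correction, and the respiratory chain count 20 and 18. The 6 protein-coding genes with the smallest p in this contrast were S100a1, Rps23, Nedd8, Cd151, Ndufa1 and Mbl2, each with an edgeR adjusted p of 0.003125. S100a1, a calcium-binding protein, was at 9.67 and 7.88 CPM in SLIT2, 101.3 and 89.3 CPM in SLIT2+APAP, 112.4 and 129.3 CPM in control and 87.2 and 77.6 CPM in APAP, so the SLIT2 libraries alone stood apart. The tetraspanin gene Cd151 had the same order of groups. Acute phase genes differed in fewer cases. The contrast was higher for 4 of 23 and lower for 1, beside 15.5% and 13.3% over all genes. The 4 became 0 without SLIT2+APAP 1, 1 without either control, SLIT2 2 or SLIT2+APAP 2, and 7 without SLIT2 1, and the level correction gave 0 higher and 3 lower. For Lcn2 the contrast was 0.75 (edgeR adjusted p = 0.6011), a value that turned to -0.13 with totals of nuclear-encoded genes and -0.45 under the level correction.

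APAP against control called 133 genes (0.788% of those tested), 56 higher (0.332%) and 77 lower (0.456%). In SLIT2+APAP against SLIT2, 20.6% of all genes tested were called higher and 20% lower. Of the 56, 14 (25%, or 0.403% of the 3478 genes higher with SLIT2 present) were also higher there, near that share. They were Arhgdia, Dsp, Eif2ak3, Eif6, Gm10639, Gsta1, Itih3, Lrrc59, Myadm, Prune1, Rgs1, Serpina3m, Sprr1a and Ttyh3. Another 11 were lower (19.6%, also near the share over all genes). The other 31 were not called, among them Btg2, Egr1, Fos, Gdf15, Ier2, Igfbp1, Jun, Junb, Jund and Zfp36. Of the 77, 17 were also lower (22.1%, near the 20% over all genes) and 5 higher (6.49%, below the 20.6%). The 55 not called included many skeletal muscle genes and Lgr5, a pericentral Wnt target. The summed level of the skeletal muscle list was 1468.619 and 175.462 CPM in control and 8.306 to 43.924 CPM in the other libraries, so control was the high side. Over all genes tested the 2 effects had a Pearson correlation of 0.001 and a Spearman correlation of -0.049, given as a description across genes, which are not independent replicates.

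**Figure D5:**
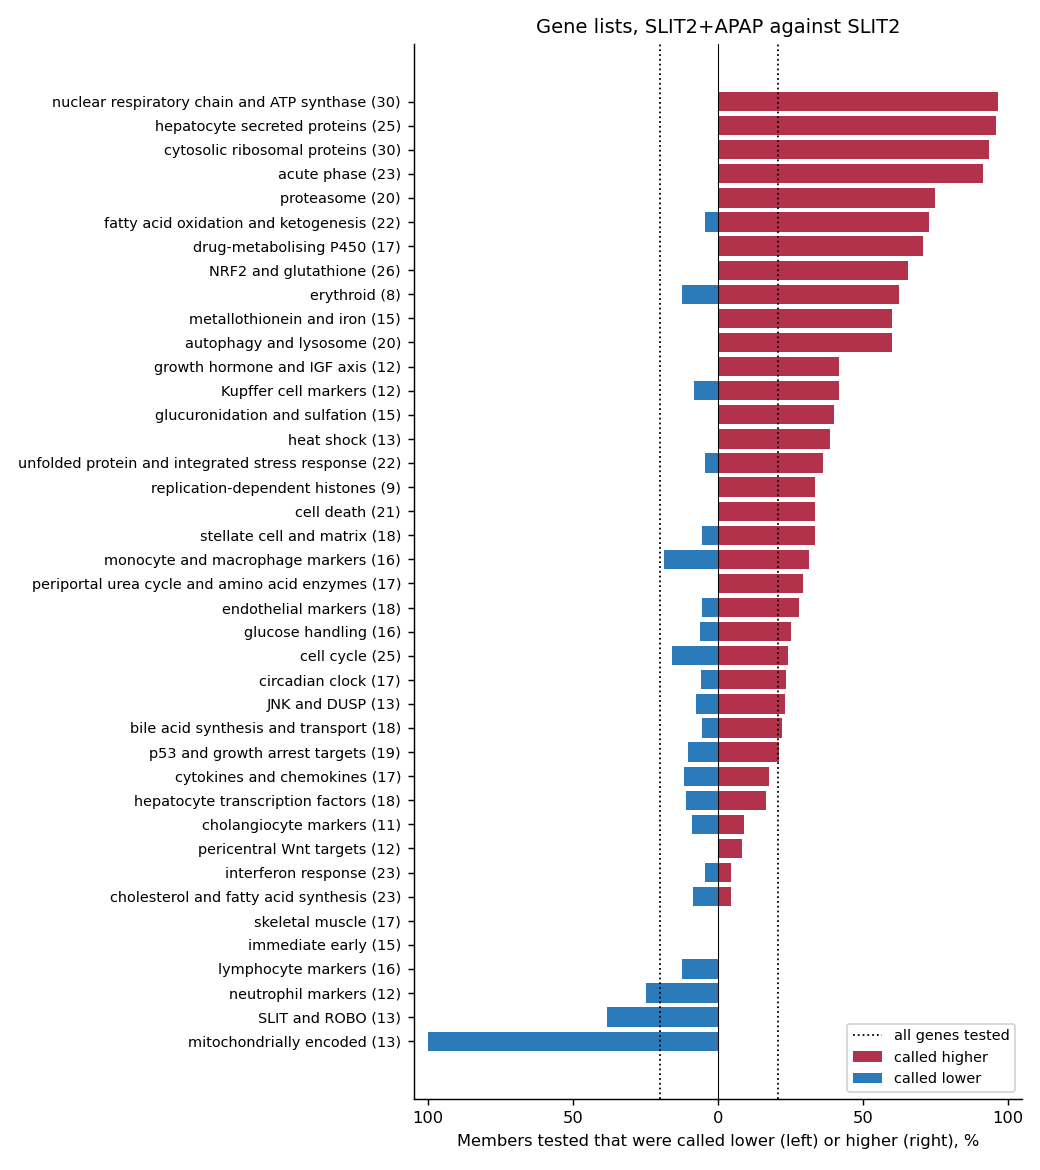
Percentage of the tested members of each of 40 gene lists called higher (right, red) or lower (left, blue) in SLIT2+APAP against SLIT2, with the number of members tested in brackets and dotted lines at the share of all genes tested, 20.6% and 20%. Respiratory chain, secreted protein, ribosomal and acute phase lists exceed 90% higher, and the mitochondrially encoded list is entirely lower.

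In the JNK pathway and its DUSP phosphatases, 3 of 13 genes were higher (Dusp6, Map2k4 and Mapk9) and 1 lower (Map2k7), near and below the 20.6% and 20% over all genes. Dusp6 went from 10.7 and 9.52 CPM to 20.7 and 38 CPM (1.53 ± 0.35, edgeR adjusted p = 0.009959), and the 3 rises became 1 without SLIT2 2 or either SLIT2+APAP library. The call of Dusp6 ended without SLIT2 2 (edgeR adjusted p = 0.06565), without SLIT2+APAP 2 (0.06837) and under the level correction (0.07295). Of 22 unfolded protein response and integrated stress genes, 8 were higher and 1 lower, with a median of 0.95. Hspa5, the BiP chaperone of the endoplasmic reticulum, went from 59.5 and 48.2 CPM to 136.7 and 162.3 CPM (1.47 ± 0.26, edgeR adjusted p = 0.003501), with 413 and 532.3 CPM in control. Its log2 change under the level correction was 0.02 (edgeR adjusted p = 0.9453). Pdia3, a protein disulfide isomerase, went from 58.3 and 39.3 CPM to 291.3 and 303 CPM (2.61 ± 0.32). Of 13 heat shock genes 5 were higher and 0 lower, including the mitochondrial chaperone Hspd1 (54.8 and 36.8 CPM to 168.5 and 175 CPM) and the small heat shock gene Hspb1 (2.4 and 1.54 CPM to 20.3 and 33.8 CPM, 3.77 ± 0.70, edgeR adjusted p = 0.004501). The unfolded protein count was 4 without SLIT2 2 or SLIT2+APAP 2, 5 without SLIT2 1 or SLIT2+APAP 1, 13 without either APAP library, and 3 with 4 lower under the level correction, and the heat shock count 3 under that correction.

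Of 19 p53 targets, 4 were higher (Bax, Ccng1, Fas and Trp53inp1) and 2 lower (Tnfrsf10b and Zmat3), near and below the 20.6% and 20% over all genes. Tnfrsf10b, a death receptor (ENSMUSG00000022074, chromosome 14, 69767472 to 69784411), was at 12.2 and 13.3 CPM in SLIT2 and 2.31 and 2.87 CPM in SLIT2+APAP (-2.30 ± 0.26, edgeR adjusted p = 0.0008653), with 1.18 to 1.46 CPM in control and APAP. Zmat3 went from 14.3 CPM in both SLIT2 libraries to 4.11 and 4.86 CPM. The rises numbered 0 without either SLIT2 library or either SLIT2+APAP library and 8 without either APAP library, while both falls passed in each of these fits. Among 21 cell death genes 7 were higher, among them Bid, Ripk3 and Tnfrsf1a, and 0 lower, beside the same shares over all genes. Ripk3, the kinase of necroptosis, had 0 counts in both SLIT2 libraries and 0.48 and 0.58 CPM in SLIT2+APAP, so no fold is given. Tnfrsf1a, a tumour necrosis factor receptor, went from 10.8 and 10.9 CPM to 39.3 and 35.5 CPM (1.78 ± 0.29, edgeR adjusted p = 0.00255). The 7 became 2 without either SLIT2+APAP library, 3 without SLIT2 2, 4 without SLIT2 1 or either control, 11 without APAP 4 and 5 under the level correction.

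Cell cycle genes split as well, with 6 higher (Aurka, Cdk1, Mcm2, Mcm3, Mcm6 and Pcna) and 4 lower (Birc5, Ccne1, Top2a and Tyms) of 25, about the share over all genes. Pcna, the DNA polymerase clamp, went from 2.82 and 3.31 CPM to 13.5 and 10.7 CPM (1.98 ± 0.30, edgeR adjusted p = 0.002058). Birc5, the inhibitor survivin, went the other way, from 31.3 and 33 CPM to 7.7 and 6.05 CPM (-2.23 ± 0.24, edgeR adjusted p = 0.0007609), and Tyms, thymidylate synthase, from 49.1 and 50 CPM to 17.3 and 17.7 CPM (-1.50 ± 0.19). Neither direction therefore described the list. Lysosome and autophagy genes were higher in 12 of 20 cases and lower in 0, beside 20.6% and 20% over all genes. The median of this list was 1.18. Lamp1, a lysosomal membrane protein, went from 39.7 and 23.7 CPM to 191.3 and 158.6 CPM (2.46 ± 0.30, edgeR adjusted p = 0.0009993), and Ctsb, cathepsin B, from 86.5 and 50 CPM to 324.1 and 335.7 CPM. The rises in the cell cycle list were 2 without SLIT2 2 or SLIT2+APAP 2 and 3 without SLIT2 1 or SLIT2+APAP 1, the falls 2 without any of these 4, and the lysosomal count was 8 without SLIT2 2 and 8 with 3 lower under the level correction.

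The endogenous Slit2 transcript was lower with APAP, as were its receptors Robo1 and Robo2, while Robo4 did not pass. Injected SLIT2 protein leaves no transcript, so these levels do not check the treatment. Slit2 (ENSMUSG00000031558, chromosome 5, 47983138 to 48307733) was at 1.28 and 1.47 CPM in SLIT2 and 0.16 and 0.11 CPM in SLIT2+APAP (-3.32 ± 0.48, edgeR adjusted p = 0.001708), and at 0.04 to 0.12 CPM in control and APAP. Robo1, the main receptor, went from 4.53 and 5.68 CPM to 2.28 and 2.71 CPM (-1.03 ± 0.29, edgeR adjusted p = 0.02217) and Robo2 from 1.87 and 2.43 CPM to 0.73 and 0.98 CPM (-1.32 ± 0.35, edgeR adjusted p = 0.01782). The endothelial receptor Robo4 had 7.18 and 6.25 CPM in SLIT2 and 3.67 and 4.15 CPM in SLIT2+APAP (-0.78 ± 0.68, edgeR adjusted p = 0.3937), and passed without APAP 3 (0.02442) and without APAP 4 (0.02017). Of 13 SLIT and ROBO pathway genes 5 were lower (Abl1, Robo1, Robo2, Slit2 and Srgap1) and 0 higher, beside 20% and 20.6% over all genes. The count was 1 without SLIT2 2 or either SLIT2+APAP library and 2 or 3 without a control. The call of Robo1 ended in each of these fits (edgeR adjusted p from 0.05527 to 0.1795), that of Robo2 without SLIT2 2 (0.0883), SLIT2+APAP 1 (0.1546) and SLIT2+APAP 2 (0.06942). Both ended under transcript length and level corrections, whereas Slit2 passed in all of these fits.

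Markers of other liver cells are set against the 20.6% higher and 20% lower over all genes. Neutrophil markers gave 3 falls (Csf3r, Cxcr2 and Mpo) and 0 rises among 12 tested of 15 listed, and their summed level was 39.723 and 36.157 CPM in SLIT2, 10.638 and 12.677 CPM in SLIT2+APAP, 5.84 and 6.939 CPM in control and 28.549 and 11.482 CPM in APAP. Cxcr2, a chemokine receptor of neutrophils (ENSMUSG00000026180, chromosome 1, 74153989 to 74161246), was at 26.8 and 26.3 CPM in SLIT2 and 4.58 and 4.84 CPM in SLIT2+APAP (-2.49 ± 0.24, edgeR adjusted p = 0.0006098). This 1 gene made up most of the summed level in SLIT2. Of the 12 members, 3 had a positive log2 fold change and 8 a negative one. At an unadjusted p under 0.05 the same model passed 4, of which Elane was higher. The granule and surface markers Camp, Ngp, Ly6g, Ltf and Elane were at 0 in both SLIT2 libraries, and Ngp and Ly6g also in SLIT2+APAP, while Mpo, another granule gene, stood at 1.61 and 1.1 CPM in SLIT2 and 0.31 and 0.42 CPM in SLIT2+APAP. Monocyte and macrophage markers gave 5 rises (Adgre1, Lgals3, Lyz2, Mrc1 and Spp1) and 3 falls (Itgam, Ms4a7 and Trem2) of 16. Lyz2, lysozyme, went from 2.2 and 1.86 CPM to 11.9 and 7.64 CPM (2.26 ± 0.32), and Ms4a7, a macrophage membrane protein, from 8.45 and 12.3 CPM to 1.13 and 1.98 CPM (-2.74 ± 0.37, edgeR adjusted p = 0.001449). Their summed level was 82.041 and 98.096 CPM in SLIT2 and 95.63 and 104.447 CPM in SLIT2+APAP. Without SLIT2 2 or either SLIT2+APAP library the macrophage rises were 2 and the falls 1, and the rises were 3 without SLIT2 1 and 9 without either APAP library. The neutrophil falls were 1 without SLIT2+APAP 1.

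The list of Kupffer cell markers, of the resident macrophages, gave 5 rises (Cd5l, Folr2, Id3, Marco and Vsig4) and 1 fall among 12. The fall was Xcr1, which is not particular to Kupffer cells, and Clec4f and Timd4 were not called. Summed levels of the list were 156.325 and 124.693 CPM in SLIT2 and 223.837 and 229.266 CPM in SLIT2+APAP. Vsig4, a complement receptor, went from 1.27 and 1.36 CPM to 10.7 and 6.2 CPM (2.69 ± 0.38, edgeR adjusted p = 0.001632), near the 9.95 and 10.7 CPM of control. Of 16 lymphocyte markers Cd3d and Cd4 were lower and 0 higher. Cd3d, of the T cell receptor complex, went from 6.75 and 4.11 CPM to 0.5 and 0.95 CPM (-2.89 ± 0.56, edgeR adjusted p = 0.005429), a call that ended without SLIT2+APAP 1 (0.05997). Of 18 endothelial markers 5 were higher, including the sinusoidal gene Oit3 (1.59 and 0.81 CPM to 5.76 and 6.28 CPM), and 1 lower, Vwf. Stellate cell and matrix genes gave 6 rises and 1 fall among 18. Dcn, the proteoglycan decorin, went from 58.3 and 43.8 CPM to 117.8 and 119.4 CPM (1.22 ± 0.33, edgeR adjusted p = 0.01984), and its call ended without SLIT2 2 (0.1012) or either SLIT2+APAP library (0.08407 and 0.07522). With single libraries left out, the Kupffer rises were 3 without SLIT2 1 or SLIT2+APAP 1, and the lymphocyte falls 0 without SLIT2+APAP 1 and 1 without SLIT2+APAP 2. The endothelial rises were 1 without SLIT2+APAP 2, 2 without SLIT2 2 or SLIT2+APAP 1, and 8 without either APAP library. The stellate rises were 0 without SLIT2 2, 1 without either SLIT2+APAP library, 2 without SLIT2 1 and 3 without either control.

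Globin genes, which report red cells in the tissue, were higher. Hbb-bt was at 0.9 and 1.05 CPM in SLIT2 and 12 and 4.42 CPM in SLIT2+APAP (3.08 ± 0.63, edgeR adjusted p = 0.006854) and Hba-a1 at 18.1 and 12.6 CPM against 107.2 and 63.1 CPM (2.47 ± 0.59, edgeR adjusted p = 0.0125), with the reads of the near-identical globin copies uncertain. Epb42, an erythrocyte membrane protein, was lower, from 2.14 and 2.55 CPM to 0.35 and 0.37 CPM. The shares over all genes were 20.6% higher and 20% lower, and under the level correction 2 erythroid genes were higher. Of the 8 erythroid genes 5 rose, and 0 or 1 did without SLIT2 1, SLIT2 2 or SLIT2+APAP 1. Skeletal muscle genes, which were far above all other libraries in control 1, gave 0 calls among 17 here with edgeR, with 2 at an unadjusted p under 0.05 and 1 rise and 1 fall called by DESeq2. The parts that these cell populations have in the results on hepatocyte genes were not tested.

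Growth hormone and IGF axis genes were higher in 5 of 12 cases (Ghr, Igfals, Igfbp2, Igfbp4 and Prlr) and lower in 0. Over all genes 20.6% were higher and 20% lower. Prlr, the prolactin receptor, went from 42.9 and 46.7 CPM to 155.5 and 142.6 CPM (1.73 ± 0.31, edgeR adjusted p = 0.004002), above its control level of 66.2 and 97.9 CPM. Igfbp4, an IGF-binding protein, went from 207.9 and 138.5 CPM to 707.3 and 579.1 CPM. Under the level correction 0 of the 5 passed. Among 17 clock genes Arntl, Clock, Cry1 and Hlf were higher and Ciart lower, near and below the 20.6% and 20% over all genes. Clock, a core activator, went from 5.85 and 2.72 CPM to 18.5 and 14 CPM (1.92 ± 0.37). Interferon response genes gave 1 rise and 1 fall of 23, below the share over all genes. The rise was Bst2, tetherin, from 10.1 and 7.28 CPM to 73.2 and 66.5 CPM (3.00 ± 0.25, edgeR adjusted p = 0.0005886), and the fall Stat2. Of 17 cytokines and chemokines Ccl5, Cxcl12 and Il1a were higher and Il18 and Lif lower, below the 20.6% and 20% over all genes. Lif, a cytokine of the interleukin 6 family, went from 3.5 and 2.44 CPM to 0.29 and 0.23 CPM (-3.54 ± 0.66, edgeR adjusted p = 0.004577). The 3 cytokine rises became 0 without either SLIT2 or either SLIT2+APAP library, and the fall of Il18 ended without SLIT2+APAP 1 (0.06308). The cytokine rises were 5 and 6 without APAP 3 and APAP 4. The clock rises became 1 without SLIT2 2 or either SLIT2+APAP library and 2 without SLIT2 1, and the rises of the growth hormone list became 2 without SLIT2+APAP 1 and 3 without SLIT2 2.

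The largest falls by log2 fold change among genes of at least 5 CPM were mostly genes that adult liver hardly expresses. Galnt17, a GalNAc transferase best known from brain (ENSMUSG00000034040, chromosome 5, 130872082 to 131308497), was at 27.9 and 75 CPM in SLIT2 and 0.69 and 1.6 CPM in SLIT2+APAP (-5.48 ± 0.62, edgeR adjusted p = 0.0008446). Slc1a3, a glutamate transporter of glia (ENSMUSG00000005360, chromosome 15, 8634124 to 8710764), went from 17.1 and 21.9 CPM to 0.59 and 0.89 CPM (-4.71 ± 0.33, edgeR adjusted p = 0.0005886). Shank1, a postsynaptic scaffold, went from 45.6 and 34.8 CPM to 1.08 and 3 CPM (-4.30 ± 0.52). In control and APAP these 3 stood below 0.7 CPM, so the SLIT2 libraries were the high ones. Ptgds, a prostaglandin D synthase, went from 11.9 and 10.7 CPM to 0.65 and 0.46 CPM, and Duxf3, of the Dux repeat family, from 30.6 and 16.4 CPM to 0.79 and 1.4 CPM. The falls of Chrna4 (2.3 and 41.2 CPM in SLIT2), Cib3 and Abraxas2 moved with single libraries. Without SLIT2 2 the edgeR adjusted p was 0.1578 for Chrna4 and 0.06408 for Abraxas2, and without SLIT2+APAP 1 or SLIT2+APAP 2 all 3 calls ended (0.06197 to 0.1199).

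Snhg11, a small nucleolar RNA host gene listed with nuclear-retained long noncoding RNAs, was at 59.4 and 68.9 CPM in SLIT2 and 17.3 and 20.5 CPM in SLIT2+APAP (-1.76 ± 0.20, edgeR adjusted p = 0.0008662), and at 6.22 to 6.95 CPM in the other libraries. Firre, the other member of that list that could be tested, was also lower, but its call ended without any 1 of the control, SLIT2 or SLIT2+APAP libraries and with library totals only. At the opposite end of the size order were Tmem230, a membrane protein of vesicles (ENSMUSG00000027341, chromosome 2, 132239492 to 132247807), with 0.13 and 0 CPM in SLIT2 and 4.46 and 6.97 CPM in SLIT2+APAP (6.28 ± 0.72, edgeR adjusted p = 0.0008112), and Raet1d, a ligand of the natural killer receptor NKG2D, with 0 and 0.45 CPM against 8.26 and 3.98 CPM (4.84 ± 1.22, edgeR adjusted p = 0.01554). With 1 SLIT2 library at 0 these sizes are not exact. The log2 value of Tmem230 was 11.93 without SLIT2 1, and that of Raet1d 12.08 without SLIT2 2, where the SLIT2 library that is left is at 0. The call of Raet1d ended without SLIT2 1 (0.07526) or SLIT2+APAP 1 (0.07343), and its family has near-identical members. Among replication-dependent histones 3 of 9 were higher, beside 20.6% over all genes. Hist1h2bc went from 12.1 and 7.37 CPM to 94.1 and 77.1 CPM (3.13 ± 0.31, edgeR adjusted p = 0.0006098).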

How the data were processed

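RNA from liver was sequenced from directional libraries, per the labels' protocols, with counting and strand settings not given in the sources used here. The authors deposited 1 table of read counts per gene for 8 liver libraries, and mm10, STAR 2.5.4, Cuffdiff 2.2.1 and Cufflinks are recorded in the submitters' processing notes without roles. Of the counts, 93 were at least 1000000 and 72 of these ended in 0, as after rounding to 6 digits. Of 23006 genes, 22341 (97.1%) matched GENCODE M21 on GRCm38, the source of coordinates, biotypes and transcript lengths.

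Genes were filtered with filterByExpr (16876 kept), scaled by TMM and fitted over all 8 libraries and 4 groups with edgeR 4.0.16 and limma 3.58.1 in R 4.3.3 (glmQLFit and glmQLFTest, common dispersion 0.112, 4 residual degrees of freedom, median prior 3.98), with Benjamini-Hochberg adjustment over all genes. The procedure was tested on simulated data in which few genes changed, with no shift in mitochondrially encoded share or along level. That test therefore cannot show how the procedure performs under the shifts seen here. DESeq2 1.42.0 and the settings listed in the closing section were alternatives. Figures were drawn with matplotlib 3.10.9 in Python 3.11.15. The model has no replicate block.

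Named genes were the 13 mitochondrially encoded genes, the 8 rises and 8 falls of largest size (called, protein-coding, a group mean of 5 CPM or more on 1 side, groups not overlapping), up to 4 members per list by p, Slit2, Robo1, Robo2 and Robo4, the 6 smallest p in the contrast of the 2 effects, and members that make up a printed count. Some genes were added with their values known, among them Alb, Gsta1, Saa1, Cyp2e1 and Gdf15. The comparison, lists and motifs were chosen with earlier results of these data known. Genes without a row in the table were not analysed here, and a few results on single genes are not reported here.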

Additional observations from a re-analysis of the deposited data

Results flagged for a closer look

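The effect of APAP on a gene differed with and without SLIT2, by the test of the difference itself, for 4867 of all genes tested. That was 28.8% of them. Of 119 named genes 84 passed this test with edgeR, 50 with a higher and 34 with a lower effect in the presence of SLIT2, at adjusted p of 0.003125 to 0.04531. The named genes were chosen from these same data, some by their p in this very contrast. Their share of calls therefore follows from the choice and is not a result. The SLIT2 libraries, which stand apart in mitochondrially encoded share, enter every one of these values, and the part of that share in them was not tested.

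The following genes had a higher effect of APAP with SLIT2 present. The log2 differences for nuclear respiratory chain, ribosomal protein, proteasome and Nedd8 genes were Ndufa1 (4.72), Ndufb3 (2.96), Sdhc (2.58), Rps20 (3.41), Rps23 (3.71), Psmb1 (2.75), Psmb7 (3.78) and Nedd8 (3.57). For secreted and acute phase proteins they were Alb (2.28), Apcs (4.42), Apoa4 (2.95), Apoh (3.22), F2 (2.60), Fgb (1.63), Itih4 (2.36), Mbl2 (3.58) and Plg (2.75). For enzymes of drug, glutathione, nitrogen, lipid and glucose metabolism they were Cyp2c50 (2.19), Cyp3a13 (1.42), Gstm1 (1.75), Gstm2 (3.67), Mgst1 (3.27), Nqo1 (2.31), Ugp2 (2.56), Arg1 (2.26), Nags (1.56), Oat (4.30), Acadl (2.61), Hadh (2.60), Cyp51 (2.72) and Pcx (1.26). For chaperones, lysosomal, iron and hormone axis genes they were Hspd1 (1.98), Pdia3 (3.04), Ctsb (1.93), Lamp1 (2.44), Fth1 (2.30), Igfbp4 (1.76) and Prlr (2.08). The remaining higher differences were Bst2 (3.25), Cd151 (3.54), Cd5l (1.37), Clock (2.35), Hbb-bt (3.69), Hist1h2bc (3.37), Lyz2 (2.43), Oit3 (2.53), Raet1d (4.90), S100a1 (3.99), Tmem230 (5.53) and Vsig4 (2.75). The calls of Apcs and Apoa4 each ended in 7 settings, among them leaving out control 1 (edgeR adjusted p = 0.06584 and 0.07407), and Apoa4 was 1.45 (0.1525) and Itih4 0.56 (0.2369) under the level correction.

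The following genes had a lower effect with SLIT2 present. The immediate early genes and Btg2 and Gdf15 gave Btg2 (-4.44), Egr1 (-7.51), Egr2 (-4.62), Fos (-3.87), Gdf15 (-5.24), Ier2 (-3.49), Jun (-4.93), Junb (-3.65), Jund (-1.68) and Zfp36 (-2.46). The mitochondrially encoded genes that passed gave mt-Nd2 (-1.49), mt-Nd4 (-1.66), mt-Nd4l (-2.41), mt-Nd5 (-2.67) and mt-Nd6 (-2.12). Immune markers and cytokines gave Cxcr2 (-2.80), Cd3d (-3.65) and Lif (-5.10). The remaining lower differences were Abraxas2 (-5.84), Birc5 (-1.27), Chrna4 (-8.81), Cib3 (-6.82), Cyp27a1 (-2.57), Epb42 (-2.89), Galnt17 (-4.65), Gckr (-1.68), Mlxipl (-1.74), Ptgds (-6.09), Shank1 (-2.85), Slc1a3 (-4.09), Snhg11 (-1.68), Tnfrsf10b (-2.42), Tyms (-1.25) and Zmat3 (-1.98). Of the 13 mitochondrially encoded genes 0 passed without control 1 or SLIT2+APAP 1, and the call of Egr2 ended without control 1 (edgeR adjusted p = 0.06639), control 2 (0.08177), SLIT2 2 (0.05326) or SLIT2+APAP 1 (0.06564).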

How the results depend on the processing

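The count of genes called between SLIT2+APAP and SLIT2 stayed within 1.5 times of 6851 under most settings run. It was 6829 with DESeq2 size factors in edgeR, 6483 with library totals only, 6800 with DESeq2, 6665 without a count filter and 8759 with the 4 compared libraries alone. With at least 10 CPM in 2 libraries, where fewer genes are tested, it was 3759 (1876 higher and 1883 lower). With totals of nuclear-encoded genes and no TMM, chosen after seeing the data, 1295 genes were higher and 6913 lower of 8208. Leaving out 1 library gave 2798 to 9660 calls, 1748 to 4899 higher and 1050 to 4765 lower. The contrast of the 2 effects gave 1002 to 8303 calls. The difference in mitochondrially encoded share was -41.33 to -32.57 percentage points with 1 library left out and -19.385 points without the 2 most abundant of these genes.

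Of 108 named genes called of 114, 30 lost the call without SLIT2+APAP 1, 20 without SLIT2+APAP 2, 17 without SLIT2 2 and 21 under the level correction, and the cause was not tested. Some directions turned. Btg2 (0.56 without SLIT2+APAP 1) became -0.26 at 10 CPM, -0.15 without SLIT2+APAP 2, -0.63 with totals of nuclear-encoded genes and -0.33 under the level correction. Jun (1.15 without SLIT2+APAP 1) became -0.41, -0.28 and -0.41 in the last 3 of these. Egr1 was between -1.60 and 0.057 with 1 library left out, the latter without SLIT2+APAP 1. mt-Atp8 became 0.26 under transcript length correction, also chosen after seeing the data. In the contrast of the 2 effects, Mt1 was between -1.92 and 2.504 with 1 library left out, positive without SLIT2 1 (0.08) and APAP 3 (2.504), and Lcn2 -0.13 with totals of nuclear-encoded genes and -0.45 under the level correction.

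The replicate block, fitted without the APAP libraries, whose numbers are 3 and 4, gave 9236 calls, against 9362 for the same 6 libraries without it, and 9259 with GC offsets. The shared numbers are not known to pair mice, and same-numbered libraries correlated at -0.071 to 0.075 in their deviations from the group means. For the contrast of the 2 effects no paired analysis was possible because APAP shares no number with the other groups, nor could it be run on the 4 libraries alone or without the APAP libraries. The lower nuclear depth of the SLIT2 libraries limits genes of low level, and thinning nuclear-encoded counts to the smallest library gave 6603 calls.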

Other observations

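Of 16 glucose handling genes 4 were higher (Fbp1, Gpi1, Pcx and Pygl) and 1 lower (Gckr) in SLIT2+APAP against SLIT2, beside 20.6% and 20% over all genes, with a median log2 fold change of -0.08. The level correction gave 0 higher and 7 lower, and totals of nuclear-encoded genes 0 and 6. The 4 became 1 without SLIT2+APAP 1 and 2 without either SLIT2 library, and Gckr did not pass without either SLIT2+APAP library. Pcx, pyruvate carboxylase, the entry step of gluconeogenesis, went from 64.6 and 49.8 CPM to 177.6 and 142.5 CPM (1.48 ± 0.25, edgeR adjusted p = 0.003252). Its call ended under the level correction (edgeR adjusted p = 0.2613) and with totals of nuclear-encoded genes (0.06625). Cholangiocyte markers gave 1 rise (Spp1) and 1 fall (Sox9) of 11, with summed levels of 39.531 and 49.808 CPM in SLIT2 and 31.051 and 38.185 CPM in SLIT2+APAP, and the rise did not pass without any 1 of these 4 libraries.

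Other promoter motifs were searched on both strands in the 250 bases before the start, and the shares were not tested. TGACNNNGC, the core of the antioxidant response element, was in 12.56% of windows of genes called higher, 10.624% of genes called lower and 11.94% of genes not called. TATAAA was in 7.721%, 8.295% and 7.087% of them, GAANNTTC, the heat shock element, in 5.8%, 5.033% and 4.853%, and TGANTCA, the AP-1 site, in 4.396%, 5.825% and 4.907%. CACGTG, the E-box, was in 8.866%, 6.384% and 7.855%, and TGACGTCA, the cAMP response element, in 2.771%, 1.817% and 2.495%.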
